A study of Homo sapiens with 4 samples.

Results

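Cadherins are calcium-dependent adhesion proteins of the cell surface, and the 105 genes described here are the protein-coding cadherin (CDH), protocadherin (PCDH), desmocollin (DSC), desmoglein (DSG) and plakophilin (PKP) genes together with DSP, JUP, CTNNA1, CTNNB1 and CTNND1. They were chosen by symbol alone from the 58051 genes of each count file, and 13 entries whose symbols matched but that are not annotated as protein-coding were left out. The plus Dox group was A549 cells, a human lung carcinoma line, that carried A-Fos integrated into the genome with piggyBac and received doxycycline at 1 μg/mL (2 libraries). The minus Dox group was the same engineered line without treatment (2 libraries). A-FOS, a dominant negative protein made from FOS, dimerises with JUN family members in a complex that cannot bind DNA, so the comparison asks how junction genes stand when AP-1 binding is blocked. Both groups carry the transgene, and doxycycline was given only to one of them, so an effect of the drug and an effect of A-FOS cannot be told apart. The series describes random integration while the sample titles call the line a knock-in, and the labels say neither whether it is 1 clone nor whether the replicates are separate cultures, so p-values measure only the spread between these libraries.

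In an adherens junction, classical cadherins of neighbouring cells bind each other and are held from inside by catenins: p120-catenin (CTNND1) and β-catenin (CTNNB1) sit on the cadherin tail, and α-catenin (CTNNA1) connects it to actin. In a desmosome, desmogleins and desmocollins take the cadherin role, and plakoglobin (JUP), plakophilins and desmoplakin (DSP) connect them to keratin filaments. Protocadherins are a further branch, best known in neurons, where the alpha, beta and gamma clusters give each cell a combination of surface proteins. In the alpha and gamma clusters each gene has its own promoter and first exon, which is spliced to constant exons common to the cluster, whereas beta genes have no constant exons.

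The libraries held 32727539 and 31104964 counts in plus Dox cells and 36377784 and 40526912 counts in minus Dox cells. Reads assigned to FOS, which can include transgene reads, stood at 48.6 and 51.0 CPM (counts scaled to the library total) in plus Dox cells against 1.36 and 1.52 CPM in minus Dox cells. The totals are corrected throughout by edgeR's trimmed-mean (TMM) factors, and 3 counts in a library, the limit that a count of 0 allows, correspond to 0.0800 to 0.0895 CPM. The keratins KRT8 and KRT18 were abundant, whereas EPCAM, another epithelial marker, was low, at 1.90 and 2.33 CPM in plus Dox cells and 3.43 and 3.55 CPM in minus Dox cells. The 5 epithelial markers summed to 5961 and 5770 CPM in plus Dox cells and 8180 and 8323 CPM in minus Dox cells, mostly KRT8 and KRT18. The markers did not move alike: KRT19 had 21.0 and 21.2 CPM in plus Dox cells against 122 and 121 CPM in minus Dox cells, while CDH1 differed little. The 5 endothelial markers summed to under 2 CPM and the 5 leukocyte markers to under 3 CPM in every library, with CD3E at 0. The 5 fibroblast markers summed to 38.9 and 40.5 CPM in plus Dox cells and 42.2 and 48.7 CPM in minus Dox cells, mostly COL1A1, while DCN and COL1A2 had at most 1 count a library. The 5 neuronal markers summed to 80.6 and 75.1 CPM in plus Dox cells and 76.7 and 72.5 CPM in minus Dox cells, mostly SYT1, with STMN2 at 0.

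Of the 105 genes, 61 had enough counts to be tested, and 6 had no count in any library, among them DSG4, PKP1, PCDH8, PCDH20 and PCDH11X. PCDH20 shares 95.8% of its exon bases with another gene on the same strand, so its lack of counts does not show that it was absent. A gene was called at an adjusted p under 0.05 in the quasi-likelihood test of edgeR, adjusted by Benjamini-Hochberg over all 18046 genes tested, and every adjusted p given is from that test unless another is named. Of the 61, 24 were higher and 10 lower in plus Dox cells, and 27 did not pass. The called share, 55.7%, was close to the 56.9% called among all genes, and protein-coding genes alone had 65.5%, so being called at all did not set these genes apart. The plus Dox and minus Dox libraries did not overlap for 49 of the 61, against 77% of all genes. Higher calls made up 39.3% and lower calls 16.4% of the 61, against 28.4% for either direction among all genes. Calls of at least 2-fold numbered 9 higher (14.8%) and 4 lower (6.56%), against 6.7% and 6.01% of all genes. The median log2 fold change of the 61 was 0.43, against 0.00 over all genes. All genes here include some that are not protein-coding. For protein-coding genes alone, only the share called in either direction was taken. The uneven split lay in the clustered protocadherins, with 16 higher and 1 lower of 32 tested, whereas the members outside the clusters had 8 higher and 9 lower of 29. In a bulk library, fewer cells that express a gene and less RNA per cell cannot be told apart, which holds for every value given here.

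**Figure D1:**
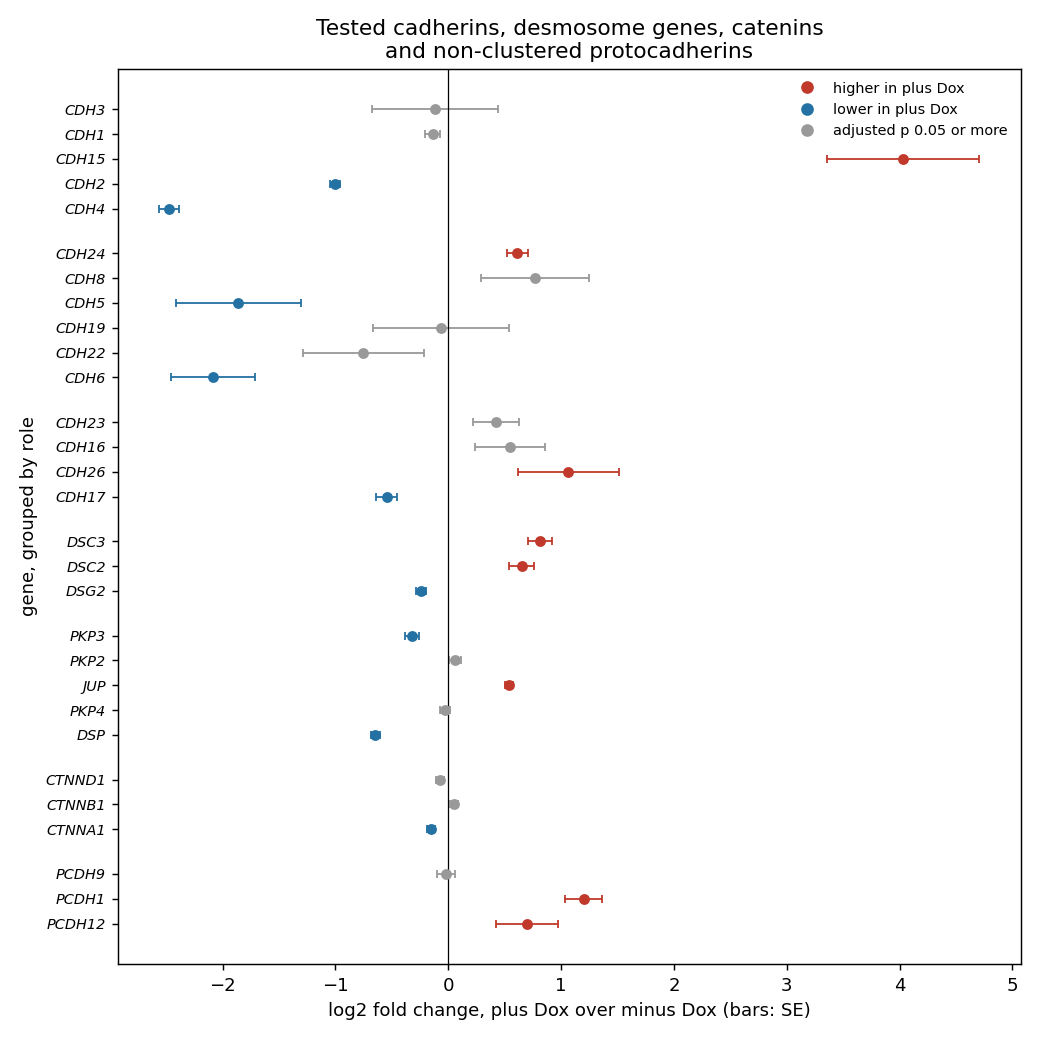
Log2 fold change, plus Dox over minus Dox (points; bars are the SE from edgeR), of the 29 tested genes outside the protocadherin clusters, grouped by role from top to bottom as classical, type II and other cadherins, desmosomal cadherins, plaque proteins, catenins and non-clustered protocadherins. CDH15 lies farthest to the right at 4.03 with a wide bar, CDH4 farthest to the left at −2.47, and the catenins lie close to 0.

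Among the 5 classical cadherins, the neural-type CDH2 and CDH4 fell, the scarce CDH15 rose, and E-cadherin and P-cadherin did not pass. CDH2, which encodes N-cadherin (chr18:27950966-28177446), had 96.8 and 94.6 CPM in plus Dox cells, against 196 and 187 CPM in minus Dox cells. It was 1.999-fold lower in plus Dox cells (SE 0.04 on the log2 scale, adjusted p = 2.10e-20), and the groups lay far apart relative to the gap between replicates. CDH4, which encodes R-cadherin (chr20:61252426-61940617), had 7.16 CPM in both plus Dox libraries, against 39.6 and 39.8 CPM in minus Dox cells. It was 5.55-fold lower in plus Dox cells (log2 fold change −2.47, SE 0.09, adjusted p = 2.06e-23), and its replicates were nearly identical. CDH1, which encodes E-cadherin, the main classical cadherin of epithelia (chr16:68737225-68835548), had 36.2 and 33.8 CPM in plus Dox cells, against 38.5 and 38.4 CPM in minus Dox cells. Both plus Dox values lay below both minus Dox values, but the difference did not pass (log2 fold change −0.14, SE 0.07, adjusted p = 0.0815), and with libraries scaled by their total alone its sign turned (0.081, adjusted p = 0.312).

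CDH15, the muscle cadherin M-cadherin, was almost absent without doxycycline: it had 46 and 21 counts in plus Dox cells, against 1 and 3 counts in minus Dox cells. The plus over minus ratio of the pooled CPM was 17.4, with a 95% counting interval of 6.48 to 65.6, and the gene was called higher (adjusted p = 3.78e-06). Even so its level stayed low, at 1.31 and 0.626 CPM in plus Dox cells against 0.0296 and 0.0800 CPM in minus Dox cells. CDH3, which encodes P-cadherin, overlapped between the groups at 10 and 15 counts in plus Dox cells and 18 and 10 counts in minus Dox cells (adjusted p = 0.876).

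Levels of different genes are set side by side here per kilobase of exon. The length is that of all annotated exons of a gene together, not of the transcript present. Shares and ratios between genes therefore depend on the annotation, whereas the change of a ratio between the groups does not. On that scale the 5 classical cadherins summed to 26.7 and 25.8 CPM per kb in plus Dox cells. In minus Dox cells they summed to 51.3 and 49.4 CPM per kb. CDH2 made up 73.2% and 74.2% of that sum in plus Dox cells and 77.2% and 76.3% in minus Dox cells, so it led in both groups. The CDH1 share was 21.9% and 21.2% in plus Dox cells and 12.1% and 12.6% in minus Dox cells, with no overlap. The CDH4 share was 3.64% and 3.78% in plus Dox cells and 10.5% and 10.96% in minus Dox cells. The ratio of CDH2 to CDH1 was 3.34 and 3.49 in plus Dox cells against 6.36 and 6.07 in minus Dox cells. With 2 libraries a group, an exact permutation test on such a ratio cannot give a p below 0.333, so the ratios are given as values only.

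**Figure D2:**
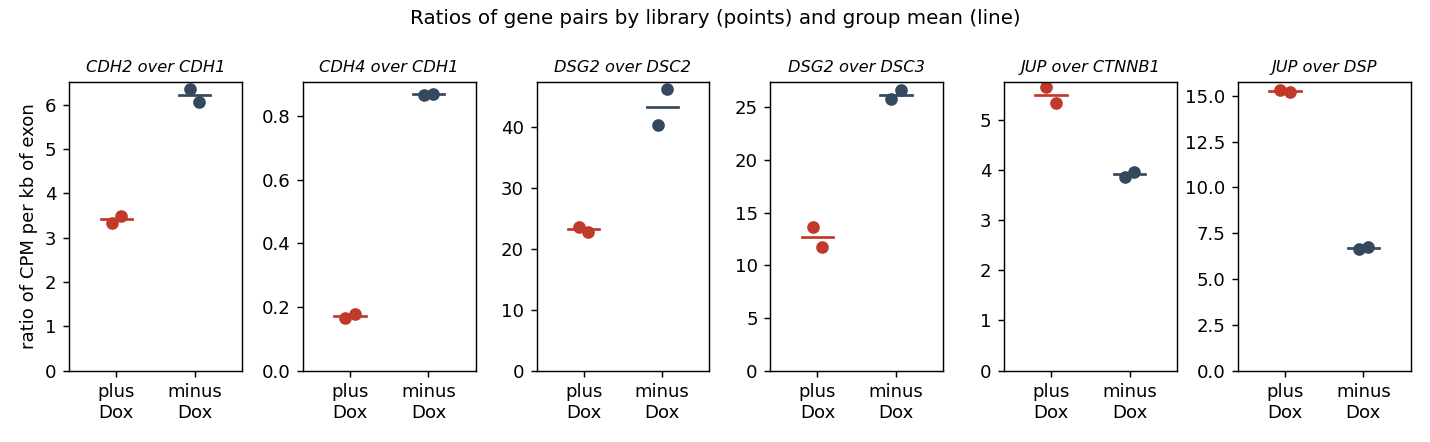
Ratios of the CPM per kb of gene pairs in each library (points) with the group mean (line), plus Dox left and minus Dox right in each panel. The ratios of CDH2 and CDH4 to CDH1 and of DSG2 to DSC2 and DSC3 are lower in plus Dox cells, and the ratios of JUP to CTNNB1 and to DSP are higher.

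Among the 13 type II cadherins, which lack the HAV adhesion motif of the classical group, 6 were tested, 1 of them higher and 2 lower. CDH24, a broadly expressed type II cadherin, had 20.8 and 25.6 CPM in plus Dox cells, against 16.1 and 14.3 CPM in minus Dox cells (log2 fold change 0.61, SE 0.09, adjusted p = 8.87e-07). It made up 94.1% and 94.3% of the type II sum per kilobase in plus Dox cells and 88.8% and 85.5% in minus Dox cells, so it was the one type II cadherin present at more than a few CPM. CDH6, K-cadherin of the kidney, had 0.284 and 0.567 CPM in plus Dox cells, against 2.04 and 1.57 CPM in minus Dox cells (log2 fold change −2.08, SE 0.37, adjusted p = 1.09e-05).

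CDH5, the VE-cadherin of endothelium, had 18 and 1 counts in plus Dox cells, against 31 and 41 counts in minus Dox cells. The plus Dox libraries differed from each other far more than the minus Dox libraries did, and the call (log2 fold change −1.86, adjusted p = 0.00426) was lost without plus Dox replicate 2 (−0.98, adjusted p = 0.130) and in DESeq2 (−1.89, adjusted p = 0.312). Without plus Dox replicate 1, which leaves 1 count in the plus Dox group, the fitted value was −4.92. The other endothelial markers were also scarce and did not share one direction. PECAM1 had 0.199 and 0.119 CPM in plus Dox cells and 0.503 and 0.534 CPM in minus Dox cells. VWF had 0.483 and 0.656 CPM in plus Dox cells and 0.0887 and 0 CPM in minus Dox cells, CLDN5 lay between 0.266 and 0.567 CPM in every library, and KDR had at most 1 count. Their part in the CDH5 values was not tested. CDH8, CDH19 and CDH22, known mainly from the nervous system, stayed under 1 CPM in every library and did not pass, with adjusted p of 0.172, 0.938 and 0.239. Of the 7 that were not tested, CDH9 had 10 and 7 counts in plus Dox cells and none in either minus Dox library, while the others had at most 13 counts in any library.

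Of the other 5 CDH genes, 4 were tested. CDH17, the liver-intestine cadherin, had 12.5 and 12.6 CPM in plus Dox cells, against 18.6 and 17.95 CPM in minus Dox cells (log2 fold change −0.54, SE 0.09, adjusted p = 4.17e-06). CDH26, a cadherin of epithelia, had 0.824 and 1.07 CPM in plus Dox cells, against 0.562 and 0.347 CPM in minus Dox cells (log2 fold change 1.07, SE 0.44, adjusted p = 0.0401), a call lost without minus Dox replicate 2 (adjusted p = 0.255) and without either plus Dox replicate (0.0610 and 0.262). CDH23, a tip-link protein of hair cells, had 3.04 and 4.33 CPM in plus Dox cells and 2.31 and 3.15 CPM in minus Dox cells, with overlap (adjusted p = 0.0766). It passed without minus Dox replicate 2 (adjusted p = 0.0122) or plus Dox replicate 1 (0.0102), and exons of a gene on the opposite strand overlap 18.9% of its exon bases. CDH16, the kidney-specific cadherin, had 1.99 and 1.25 CPM in plus Dox cells and 1.15 and 1.07 CPM in minus Dox cells (adjusted p = 0.130), and passed without plus Dox replicate 2 (0.0418). CDH13, T-cadherin, was not tested, with no count in plus Dox cells and 2 and 1 counts in minus Dox cells.

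Within the desmosome the desmocollins rose while desmoglein 2 was slightly lower. DSC2 (chr18:31058840-31102522) had 14.5 and 15.2 CPM in plus Dox cells, against 10.6 and 8.43 CPM in minus Dox cells (log2 fold change 0.65, SE 0.11, adjusted p = 3.65e-06). DSC3 (chr18:30990008-31042815) had 14.2 and 16.7 CPM in plus Dox cells, against 9.35 and 8.24 CPM in minus Dox cells (log2 fold change 0.81, SE 0.11, adjusted p = 5.54e-08). DSG2, the desmoglein found in all desmosome-bearing tissues (chr18:31498043-31549008), had 170 and 172 CPM in plus Dox cells, against 212 and 193 CPM in minus Dox cells (log2 fold change −0.24, SE 0.04, adjusted p = 1.27e-05). The DSC2 call was lost when a trend with GC content, length and abundance was removed (log2 fold change 0.15, adjusted p = 0.253), and the DSG2 call was lost with libraries scaled by their total alone (−0.02, adjusted p = 0.651).

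DSG2 was by far the most abundant desmosomal cadherin in both groups, with 89.6% and 88.6% of the sum per kilobase in plus Dox cells and 94.0% and 94.4% in minus Dox cells. The ratio of DSG2 to DSC2 was 23.6 and 22.8 in plus Dox cells against 40.3 and 46.1 in minus Dox cells. It rests on annotated exon lengths of 6190 bases for DSG2 and 12495 bases for DSC2. The ratio of DSG2 to DSC3 was 13.7 and 11.7 in plus Dox cells against 25.8 and 26.6 in minus Dox cells. DSC1, DSG1, DSG3 and DSG4, known from stratified skin and mucosa, had at most 5 counts in any library and were not tested.

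The plaque proteins moved in different directions. JUP, which encodes plakoglobin (chr17:41754604-41786931), had 938 and 930 CPM in plus Dox cells, against 630 and 656 CPM in minus Dox cells (log2 fold change 0.54, SE 0.03, adjusted p = 5.21e-16). DSP, which encodes desmoplakin (chr6:7541575-7586717), had 125 CPM in both plus Dox libraries, against 193 and 198 CPM in minus Dox cells (log2 fold change −0.65, SE 0.04, adjusted p = 1.33e-15). These are the 2 proteins that follow each other in the chain from cadherin tail to keratin, and the ratio of JUP to DSP per kilobase was 15.3 and 15.2 in plus Dox cells against 6.67 and 6.78 in minus Dox cells.

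PKP3, a plakophilin of simple and stratified epithelia, had 49.4 and 50.7 CPM in plus Dox cells, against 59.6 and 65.3 CPM in minus Dox cells (log2 fold change −0.32, SE 0.06, adjusted p = 1.36e-05). That call was lost with libraries scaled by their total alone (log2 fold change −0.11, adjusted p = 0.121). PKP2, the plakophilin shared by epithelia and heart, had 62.2 and 58.8 CPM in plus Dox cells and 56.9 and 59.0 CPM in minus Dox cells, with overlap (adjusted p = 0.375). PKP4, a relative of p120-catenin, had 106 and 105 CPM in plus Dox cells and 106 and 109 CPM in minus Dox cells (adjusted p = 0.633), and PKP1 had no count. With libraries scaled by their total alone, PKP2 (log2 fold change 0.28, adjusted p = 4.71e-05) and PKP4 (0.19, adjusted p = 5.27e-04) were called higher.

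Of the 3 catenins, 1 passed the test, and the log2 fold changes ran from −0.15 to 0.05. CTNNB1 (chr3:41194741-41260096) had 400 and 421 CPM in plus Dox cells and 394 and 399 CPM in minus Dox cells (log2 fold change 0.05, SE 0.04, adjusted p = 0.253). CTNND1 (chr11:57753243-57819546) had 390 and 395 CPM in plus Dox cells and 415 and 411 CPM in minus Dox cells (log2 fold change −0.07, SE 0.04, adjusted p = 0.0867), and passed without minus Dox replicate 1 (adjusted p = 0.0282) or 2 (0.0119). CTNNA1 (chr5:138610967-138935034) had 642 and 631 CPM in plus Dox cells and 703 and 711 CPM in minus Dox cells and was called lower (log2 fold change −0.15, SE 0.03, adjusted p = 2.04e-04). The direction of CTNNA1 and CTNND1 depended on the scaling: with libraries scaled by their total alone they had log2 fold changes of 0.063 and 0.14, and once the trend with GC content, length and abundance was taken out 0.30 and 0.25. CTNNB1 was called higher under both settings, at 0.27 and 0.38. Plakoglobin can take the place of β-catenin on classical cadherins. Per kilobase, JUP exceeded CTNNB1 by a factor of 5.66 and 5.33 in plus Dox cells against 3.86 and 3.96 in minus Dox cells. These factors rest on annotated exon lengths of 4942 bases for JUP and 11927 bases for CTNNB1.

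**Figure D3:**
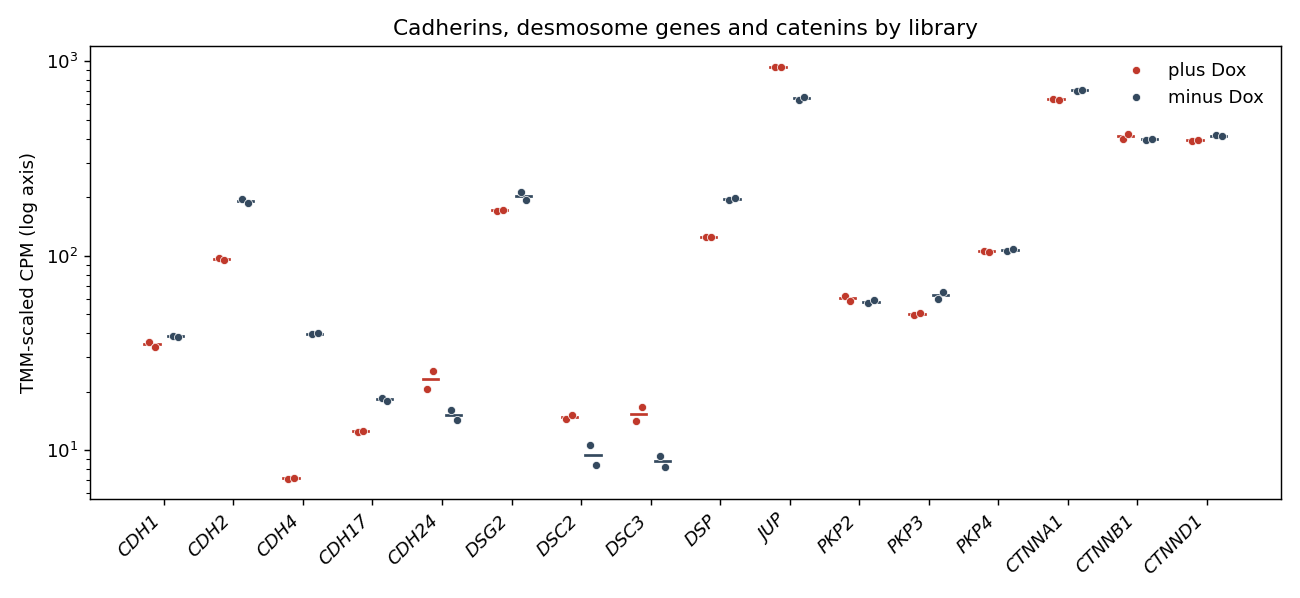
TMM-scaled CPM (log axis) of 16 cadherin, desmosome and catenin genes in each library (points) with the group mean (line), plus Dox left and minus Dox right for each gene. CDH2, CDH4 and DSP lie lower in plus Dox cells, JUP, DSC2 and DSC3 lie higher, and CTNNB1, PKP2 and PKP4 nearly coincide.

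Of the 13 protocadherins outside the clusters, 3 were tested, and 2 of them rose. PCDH1, a protocadherin of airway epithelium (chr5:141853111-141879246), had 6.02 and 7.01 CPM in plus Dox cells, against 2.69 and 2.96 CPM in minus Dox cells (2.30-fold, SE 0.16 on the log2 scale, adjusted p = 7.93e-08). PCDH12, known from endothelium and placenta, had 2.22 and 1.82 CPM in plus Dox cells, against 1.04 and 1.44 CPM in minus Dox cells (log2 fold change 0.70, SE 0.28, adjusted p = 0.0304), and lost its call without minus Dox replicate 1 (adjusted p = 0.204) or plus Dox replicate 1 (0.216). PCDH9, a protocadherin best known from brain, had 21.6 and 23 CPM in plus Dox cells and 22.5 and 22.8 CPM in minus Dox cells (adjusted p = 0.826). Once the trend with GC content, length and abundance was taken out it was called lower (log2 fold change −0.51, adjusted p = 1.31e-06), and with libraries scaled by their total alone higher (0.19, adjusted p = 0.0362).

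The 53 clustered protocadherins lie side by side on chromosome 5, the alpha genes first, then beta, then gamma, and 32 of them were tested. Exons of the 37 alpha and gamma genes overlap those of their neighbours on the same strand, over 21.3% to 56.6% of exon bases in the alpha cluster and 27.6% to 64.4% in the gamma cluster. PCDHA9 shares the constant exons of the abundant alpha genes yet had 6 and 4 counts in plus Dox cells and 2 and 0 counts in minus Dox cells, so reads from those exons were not credited to every gene of the cluster. How the counting divided reads that fit several genes is not given in the sources used here, and single alpha and gamma values are uncertain to that extent. The beta genes share at most 9.43% of their exon bases on the same strand, but they are close copies of one another.

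Promoters of clustered protocadherins are known for a conserved element with a CGCT core upstream of the start. Sequences are shown here to let genes that were called higher be set beside genes that did not pass the test. RefSeq promoter windows (GRCh38.p14, 250 bases before to 50 after each start) matched 82 of the 105 members and 47 of the 53 clustered genes. Each stretch is the plus strand of chromosome 5, 5′ to 3′, with the form found in capitals; PCDHA12 and PCDHGB4 did not pass the test and the others were called higher.
PCDHA1: aatttacattggccacatGATGTCGCTgta
PCDHA5: ttaccctttcatccacatGATGTCGCTgga
PCDHA12: ttacataatcagtcacatGATGTCGCTcta
PCDHB2: actcggaagagacgcgggGTGGCGCTGcag
PCDHB13: atcctgtgaggacgcgtgGTGGCGCTGcag
PCDHB15: aagcaaagacaacgcatgGTGGCGCTGcag
PCDHB16: actcagtgagaacgcgtgGTGGCGCTGcag
PCDHGA1: aactggttaggactgtggGCGCCGCTGttc
PCDHGA7: acttagtaaggactcacaGCGCCGCTGttc
PCDHGB4: tcctagtgctgactctggGCGCCGCTGttg
PCDHGB5: tcctagtgctgactctggGCGCCGCTGttg

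The capitals begin 42 to 99 bases before the RefSeq start, as in PCDHB13 (chr5:141213859-141213888) and PCDHGA1 (chr5:141330397-141330426). The 3 forms, chosen after these promoters were read, were searched on both strands, and each was found in 1 of the 3 clusters. GATGTCGCT stood in 9 of 13 alpha genes and in 0.105% of 35116 windows of all genes. GTGGCGCTG stood in 12 of 14 beta genes and 0.572% of all windows, and GCGCCGCTG in 10 of 20 gamma genes and 1.28% of all windows. A form was present in 11 of 15 clustered genes that were called higher and in 8 of 13 that did not pass. It was present in 12 of 19 that were not tested. Of the 32 tested clustered genes 30 had log2 fold changes above 0, so these shares cannot show whether a form goes with a rise. PCDHGB4 and PCDHGB5 have the same 30 bases at this place. Both had positive log2 fold changes, 0.34 (SE 0.17) and 0.70 (SE 0.12), though only PCDHGB5 passed the test. The AP-1 motif TGACTCA, on either strand, was in none of the clustered windows. It was in 1 of the 108 windows of the 82 matched members, that of the untested CDH18, against 4.95% of all windows. Members without a window, CDH1, CDH6, CDH15, CDH17 and CDH24 among them, were not searched, nor was sequence outside the windows. The FOXA motif TGTTTAC, on either strand and searched because the series concerns FOXA1, was in 1 of the 108, that of DSC2, against 3.42% of all windows.

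**Figure D4:**
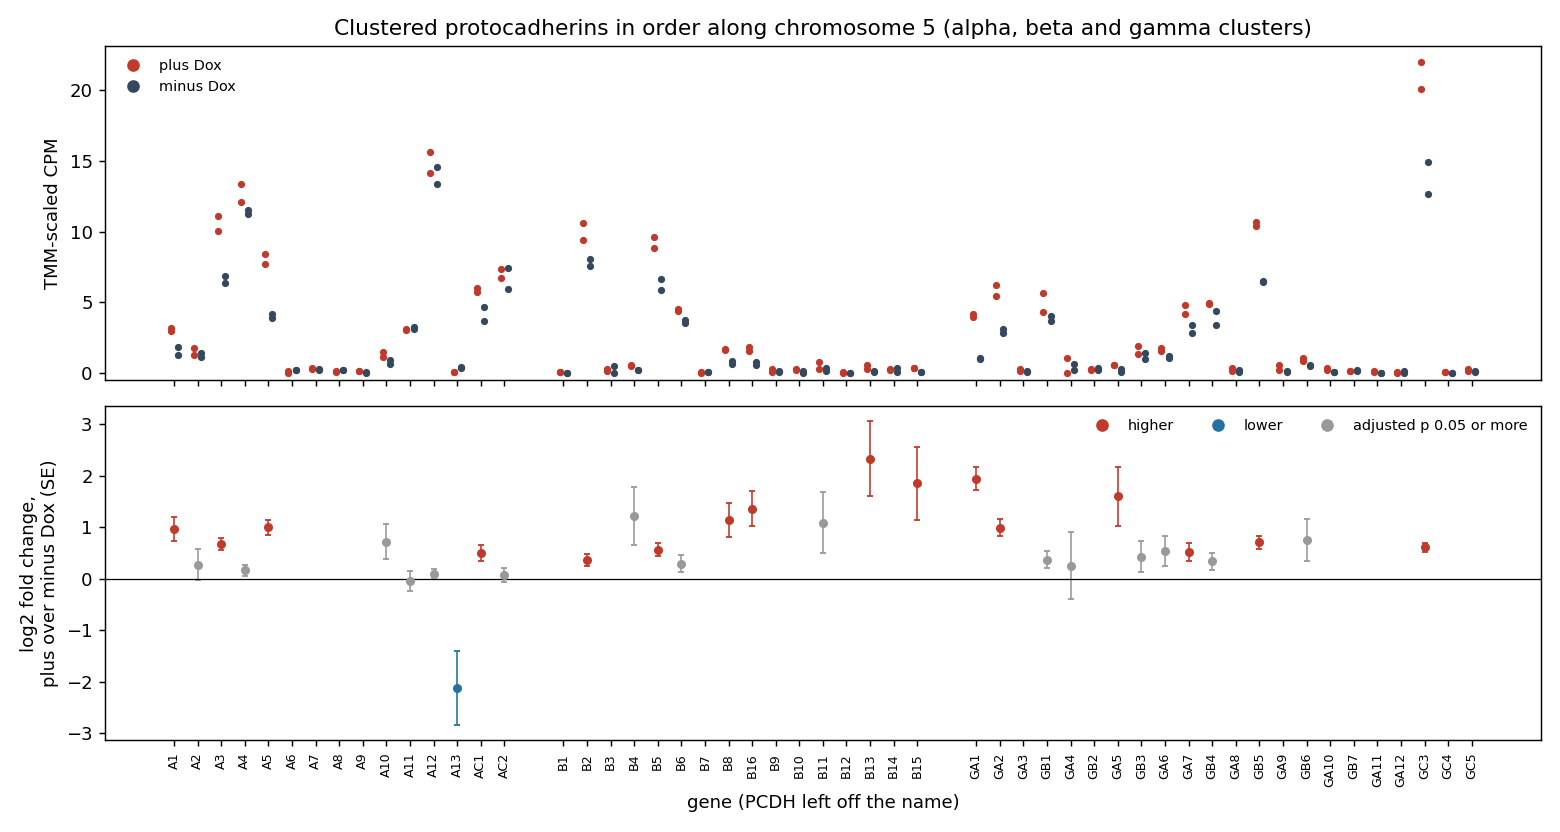
TMM-scaled CPM of each clustered protocadherin in each library (upper panel; plus Dox left of minus Dox) and log2 fold change, plus Dox over minus Dox, with its SE for the tested genes (lower panel), in order along chromosome 5. A few genes of each cluster carry most of the counts, and the tested values lie above 0 for all 9 beta and 12 gamma genes and for 9 of 11 alpha genes.

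Summed over each cluster, all 3 clusters were higher in plus Dox cells, by an amount well beyond the gap between replicates. The 22 gamma genes summed to 64.0 and 62.4 CPM in plus Dox cells, against 39.1 and 40.6 CPM in minus Dox cells (log2 fold change 0.67, SE 0.06, adjusted p = 3.64e-12). The 16 beta genes summed to 30.5 and 29.4 CPM in plus Dox cells, against 20.1 and 21.1 CPM in minus Dox cells (log2 fold change 0.54, SE 0.08, adjusted p = 1.45e-07). The 15 alpha genes summed to 69.6 and 68.2 CPM in plus Dox cells, against 55.5 and 54.1 CPM in minus Dox cells (log2 fold change 0.33, SE 0.05, adjusted p = 2.82e-06). With libraries scaled by their total alone, 25 of the 32 tested clustered genes were called higher, beside 7865 of all 18046 genes. That scaling moved the median log2 fold change of all genes to 0.22. DESeq2 called 3 alpha, 3 beta and 4 gamma genes higher, beside 4255 of all 18046 genes. Reads from the constant exons were not credited to every gene that shares them, as the PCDHA9 counts show. How they were handled otherwise, which would enter the alpha and gamma sums, was not tested.

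In the gamma cluster, 12 of 22 genes were tested, 6 of them higher and none lower. PCDHGA1 (chr5:141330571-141512981) had the lowest adjusted p of the clustered genes, with 3.95 and 4.15 CPM in plus Dox cells against 1.01 and 1.09 CPM in minus Dox cells (log2 fold change 1.94, SE 0.23, adjusted p = 4.10e-09). PCDHGC3, a C-type isoform that lies nearest the constant exons together with PCDHGC4 and PCDHGC5, had 20.1 and 22.02 CPM in plus Dox cells, against 12.7 and 14.9 CPM in minus Dox cells (log2 fold change 0.61, SE 0.09, adjusted p = 7.77e-07). PCDHGA2 had 6.25 and 5.43 CPM in plus Dox cells, against 3.11 and 2.80 CPM in minus Dox cells (log2 fold change 0.99, SE 0.17, adjusted p = 3.85e-06). In each of these genes both plus Dox libraries lay above both minus Dox libraries. PCDHGB5 had 10.7 and 10.4 CPM in plus Dox cells, against 6.45 and 6.48 CPM in minus Dox cells (log2 fold change 0.70, SE 0.12, adjusted p = 4.24e-06). PCDHGA7 had 4.15 and 4.80 CPM in plus Dox cells, against 3.37 and 2.85 CPM in minus Dox cells (adjusted p = 0.0109), and lost its call without minus Dox replicate 2 (0.0934) or plus Dox replicate 2 (0.115).

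PCDHGA5 had 21 and 20 counts in plus Dox cells, against 3 and 11 counts in minus Dox cells, a ratio of 3.04 with a 95% counting interval of 1.62 to 6.03. Its call (adjusted p = 0.0183) was lost without minus Dox replicate 1 (0.257) and without either plus Dox replicate (0.127 each). PCDHGA4 was the least repeatable, with 37 and 1 counts in plus Dox cells and 8 and 25 counts in minus Dox cells (adjusted p = 0.761), and without plus Dox replicate 1 it turned to a call in the other direction (log2 fold change −3.78, adjusted p = 0.0164). PCDHGB1, PCDHGB3, PCDHGB4, PCDHGA6 and PCDHGB6 had log2 fold changes between 0.34 and 0.75 and did not pass. Of these, PCDHGB4 passed without minus Dox replicate 1 (adjusted p = 0.0176) and PCDHGB1 without plus Dox replicate 2 (0.0142). By subfamily, the PCDHGA genes summed to 19.1 and 17.8 CPM in plus Dox cells against 9.55 and 9.42 CPM in minus Dox cells, and the PCDHGB genes to 24.4 and 22.4 CPM in plus Dox cells against 16.8 and 16.1 CPM in minus Dox cells.

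In the beta cluster, 9 of 16 genes were tested, 6 of them higher and none lower. PCDHB5 (chr5:141135218-141138625) had 8.83 and 9.61 CPM in plus Dox cells, against 6.63 and 5.87 CPM in minus Dox cells (log2 fold change 0.56, SE 0.13, adjusted p = 2.39e-04). PCDHB16 had 1.87 and 1.58 CPM in plus Dox cells, against 0.562 and 0.774 CPM in minus Dox cells (log2 fold change 1.36, SE 0.33, adjusted p = 6.35e-04). PCDHB8 had 1.62 and 1.73 CPM in plus Dox cells, against 0.858 and 0.667 CPM in minus Dox cells (log2 fold change 1.14, SE 0.32, adjusted p = 0.00294). These 3 genes kept their calls when any 1 library was left out.

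The remaining 3 beta calls did not. PCDHB2, the most abundant beta gene beside PCDHB5, had 10.6 and 9.40 CPM in plus Dox cells, against 7.54 and 8.08 CPM in minus Dox cells (log2 fold change 0.36, adjusted p = 0.0103), and lost its call without minus Dox replicate 1 (0.0538) or plus Dox replicate 1 (0.161). PCDHB13 had 10 and 20 counts in plus Dox cells, against 4 and 2 counts in minus Dox cells (ratio 5.19, 95% counting interval 2.12 to 15.2, adjusted p = 0.00635), and lost its call without minus Dox replicate 2 (0.129) or plus Dox replicate 2 (0.274). PCDHB15 had 13 and 12 counts in plus Dox cells, against 3 and 4 counts in minus Dox cells (ratio 3.70, 95% counting interval 1.56 to 10.1, adjusted p = 0.0242), and lost its call without any 1 of the 4 libraries, with adjusted p of 0.145 to 0.188. All 3 were nonetheless above the minus Dox libraries in both plus Dox libraries. PCDHB4, PCDHB6 and PCDHB11 had log2 fold changes of 1.21, 0.29 and 1.08 and did not pass.

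In the alpha cluster, 11 of 15 genes were tested, and the split between genes was wider, with 4 higher, 1 lower and 6 that did not pass. PCDHA5 (chr5:140821604-141012344) had 7.70 and 8.38 CPM in plus Dox cells, against 4.17 and 3.89 CPM in minus Dox cells (1.99-fold, SE 0.14 on the log2 scale, adjusted p = 2.06e-07). PCDHA3 had 11.1 and 10.0 CPM in plus Dox cells, against 6.39 and 6.88 CPM in minus Dox cells (log2 fold change 0.67, SE 0.12, adjusted p = 1.14e-05). PCDHA1 had 2.98 and 3.16 CPM in plus Dox cells, against 1.86 and 1.31 CPM in minus Dox cells (log2 fold change 0.96, SE 0.23, adjusted p = 5.87e-04). In all 3 the groups were clear of each other. PCDHAC1, a C-type alpha gene, had 6.02 and 5.76 CPM in plus Dox cells, against 4.64 and 3.71 CPM in minus Dox cells (log2 fold change 0.50, SE 0.16, adjusted p = 0.00632), and lost its call without minus Dox replicate 2 (0.106).

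PCDHA12, the most abundant alpha gene in CPM, stood level at 15.7 and 14.1 CPM in plus Dox cells and 14.6 and 13.3 CPM in minus Dox cells, with overlap (log2 fold change 0.10, adjusted p = 0.417). PCDHA10 had 1.48 and 1.16 CPM in plus Dox cells and 0.947 and 0.667 CPM in minus Dox cells and did not pass (log2 fold change 0.72, adjusted p = 0.0752). PCDHA4, PCDHA2, PCDHAC2 and PCDHA11 had log2 fold changes between −0.05 and 0.27 and did not pass. PCDHA13 was the one clustered gene called lower, with 3 and 3 counts in plus Dox cells against 12 and 16 counts in minus Dox cells (ratio 0.222, 95% counting interval 0.0752 to 0.547, adjusted p = 0.0111). That call was lost without any 1 of the 4 libraries, with adjusted p of 0.0611 to 0.135.

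The other genes of the junction pathways give the surroundings of these values. Beside the lists that follow, 28.4% of all tested genes were lower and 28.4% higher. With the trend with GC content, length and abundance taken out, 4325 of 18046 genes were lower and 5051 higher. Of 8 tested desmosome and plaque partners, 6 were lower and 1 higher, with a median log2 fold change of −0.46. Once the trend was taken out 4 were lower and 3 higher. PLEC, the plectin that cross-links keratin filaments, had 917 and 934 CPM in plus Dox cells, against 2133 and 2224 CPM in minus Dox cells (log2 fold change −1.23, adjusted p = 3.19e-27). DST, the dystonin of the plakin family to which DSP also belongs, had 273 and 262 CPM in plus Dox cells, against 431 and 418 CPM in minus Dox cells (log2 fold change −0.67, adjusted p = 2.55e-17). KRT8, a keratin that desmoplakin anchors in simple epithelia, had 3706 and 3607 CPM in plus Dox cells, against 5233 and 5328 CPM in minus Dox cells (log2 fold change −0.53, adjusted p = 1.15e-17), but its value turned, once the trend with GC content, length and abundance was taken out, to 0.40 (adjusted p = 4.22e-14).

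Of 17 tested adherens junction partners, 6 were higher and 7 lower. The higher ones were AFDN, NECTIN1, NECTIN2, NECTIN3, CAMSAP3 and LIMA1. The genes given next had the lowest adjusted p of the list. VCL, the vinculin that binds α-catenin under tension, had 445 CPM in both plus Dox libraries, against 738 and 750 CPM in minus Dox cells (log2 fold change −0.74, adjusted p = 8.07e-20). AJUBA, a LIM protein that also binds α-catenin, had 157 and 164 CPM in plus Dox cells, against 253 and 268 CPM in minus Dox cells (log2 fold change −0.70, adjusted p = 1.23e-16). ACTN4, the actin cross-linker α-actinin-4, had 2659 and 2637 CPM in plus Dox cells, against 4093 and 4290 CPM in minus Dox cells (log2 fold change −0.66, adjusted p = 6.14e-20), and turned to 0.18 with the trend removed (adjusted p = 6.95e-06). The VCL and AJUBA values stayed negative under that setting, at −0.30 and −0.46.

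Of 16 tested members of the wider cadherin superfamily, 3 were higher and 6 lower, against 5 higher and 4 lower once the trend was taken out. With the trend left in, the higher ones were CDHR1, CLSTN2 and FAT4. The genes given next had the lowest adjusted p of the list. CELSR1, a planar polarity cadherin with a receptor-like membrane domain, had 158 and 167 CPM in plus Dox cells, against 278 and 291 CPM in minus Dox cells (log2 fold change −0.81, adjusted p = 1.43e-18). CELSR3, its neuronal relative, had 14.7 and 16.9 CPM in plus Dox cells, against 21.9 and 23.6 CPM in minus Dox cells (log2 fold change −0.53, adjusted p = 3.15e-06). FAT1, a giant atypical cadherin, had 512 and 495 CPM in plus Dox cells, against 626 and 642 CPM in minus Dox cells (log2 fold change −0.33, adjusted p = 3.10e-10), and turned to 0.11 with the trend removed (adjusted p = 0.00848).

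Of 9 tested genes that cut or process cadherins, 2 were higher and 3 lower, and without minus Dox replicate 2 none were higher and 3 lower. PCSK5, a proprotein convertase, was among the higher ones (log2 fold change 0.49, adjusted p = 0.0150). ADAM17, a protease that sheds surface proteins, had 64.6 and 63.8 CPM in plus Dox cells, against 80.5 and 82.2 CPM in minus Dox cells (log2 fold change −0.34, adjusted p = 5.75e-07). ADAM15 and FURIN had log2 fold changes of −0.28 and −0.19 (adjusted p = 1.06e-05 and 2.13e-04), but with libraries scaled by their total alone neither was called, at −0.060 (adjusted p = 0.308) and 0.029 (adjusted p = 0.556). FURIN was also not called once the trend was taken out (adjusted p = 0.979), while ADAM15 was (−0.21, adjusted p = 4.73e-04). With that scaling the split of the list was 6 higher and 1 lower.

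CTCF and cohesin loop the promoters of clustered protocadherins to their enhancers, and SMCHD1 and DNA methylation keep unused ones silent. Of 13 tested genes of this machinery, 5 were higher and 5 lower, or 8 higher and 1 lower with libraries scaled by their total alone. STAG2, a cohesin subunit, had 217 and 206 CPM in plus Dox cells, against 167 and 159 CPM in minus Dox cells (log2 fold change 0.38, adjusted p = 1.23e-09). SMCHD1 had 78.4 and 79.1 CPM in plus Dox cells, against 59.98 and 52.85 CPM in minus Dox cells (log2 fold change 0.48, adjusted p = 4.17e-09), a call lost with the trend removed (0.01, adjusted p = 0.855). DNMT1, the maintenance DNA methyltransferase, had 233 and 230 CPM in plus Dox cells, against 279 and 296 CPM in minus Dox cells (log2 fold change −0.31, adjusted p = 1.47e-08), a call also lost with the trend removed (−0.04, adjusted p = 0.447). Their part in the protocadherin values was not tested.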

How the data were processed

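Poly(A) RNA of 4 libraries was sequenced with a stranded kit, per the labels' protocols. The deposited files hold raw read counts per gene, as whole numbers; the submitters' processing notes name cutadapt 4.0, STAR 2.7.10b, featureCounts 2.0.3 and the build hg38, while no source used here gives the strand setting or the treatment of overlapping genes. Counts over 18046 genes were tested with edgeR 4.0.16 (filterByExpr, TMM factors, quasi-likelihood F test, group as the only term, Benjamini-Hochberg threshold 0.05) in R 4.3.3. On simulated counts of 18046 genes, the test recovered 44% of 1.2-fold, 64% of 1.5-fold, 72% of 2-fold and 92% of 4-fold changes. It called 8 of 17846 unchanged genes. Only 50 genes were changed at each fold size, in both directions, and the simulated spread followed the fitted trend with abundance alone. In the data 56.9% of genes were called and single genes can vary around that trend, so these rates need not carry over. Counting intervals (95%, exact) and the 3-count limit cover counting error only.

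The members and gene lists were chosen with earlier results of these data known. Genes given by library were, in each role group, up to 6 tested members with the lowest adjusted p plus 7 junction genes (CDH1, CDH2, DSP, JUP, CTNNA1, CTNNB1 and CTNND1), and up to 3 genes of each other list. PCDHA12, PCDHGA4, CDH9, CDH13, PCDHA9, PCSK5 and the cell type markers given by library, which that rule does not name, and the promoter forms and FOXA motif were chosen after values were seen. The files give Ensembl IDs only; 57447 of 58051 were found in GENCODE 29 (GRCh38), the source of gene types, coordinates and exon overlap, which may not be the release the authors counted with, and 56948 had a symbol in the gene name table used. CPM per kb used the length of all annotated exons of a gene together, less the bases shared on the same strand. Same-numbered replicates did not deviate together (r = 0.00226), so the numbers were not taken as pairs. Alternatives were libraries scaled by their total alone, DESeq2 1.42.0, no count filter, a replicate block, a GC, length and abundance trend removed, each library left out, and each cluster summed.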

Additional observations from a re-analysis of the deposited data

How the results depend on the processing

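The count of members called higher was 24; it was 40 with libraries scaled by their total alone and 11 of 32 when each protocadherin cluster was summed into 1 entry, so that fewer entries were tested. Scaling by the total alone moved the median of all genes to a log2 fold change of 0.22, against 0.00, and called 7865 genes higher and 2925 lower, so 72.9% of called genes were higher, against 50.0%. Without 1 library, 20 to 22 members were higher and 8 to 11 lower, and over all genes 4246 to 4952 were higher and 4318 to 5170 lower. DESeq2 called 16 of 61 members higher and 8 lower, beside 4255 of 18046 genes higher and 4366 lower. The uneven split of the members was therefore smaller beside all genes than in edgeR. DESeq2 did not call PCDHA13, PCDHAC1, PCDHB2, PCDHB13, PCDHB15, PCDHGA5, PCDHGA7, PCDH12, CDH5 and CDH26, and the cause was not tested. With the replicate block 24 members were higher and 10 lower, and it changed no member's call, although 11 rather than 12 of the tested gamma genes lay above 0. Among members called in either fit, signs turned with libraries scaled by their total for PKP4 (0.19), CTNNA1 (0.063), CTNND1 (0.14) and PCDH9 (0.19), with the trend removed for PKP4 (0.14), CTNNA1 (0.30) and CTNND1 (0.25), and without plus Dox replicate 1 for PCDHGA4 (range −3.78 to 1.19 with 1 library left out); the cause was not tested. Signs also turned between values that were called in neither fit: for CDH1, CDH3, CDH19 and PCDHA11 with libraries scaled by their total, for PCDHGA4 with the replicate block, and for PCDHAC2, PCDHGA4, PCDH9, CDH3 and CDH19 without at least 1 of the libraries. Of 34 called members, 20 kept their call under every alternative that tested each member singly, which leaves out the summed clusters. Higher were PCDHA1, PCDHA3, PCDHA5, PCDHB5, PCDHB8, PCDHB16, PCDHGA1, PCDHGA2, PCDHGB5, PCDHGC3, PCDH1, CDH24, CDH15, JUP and DSC3. Lower were CDH4, CDH2, CDH6, CDH17 and DSP. The cluster sums had log2 fold changes of 0.44 (alpha), 0.61 (beta) and 0.76 (gamma) with the trend removed. At this depth 44 members had too few counts to be tested.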
